A study of Mus musculus with 9 samples.

Results

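The proteasome genes of the mouse were examined in RNA-seq libraries of retinal explants that were kept with or without 2-deoxy-D-glucose (2-DG), an inhibitor of glycolysis that cells take up in place of glucose. The members were the protein-coding genes of the gene table whose symbol starts with Psma, Psmb, Psmc, Psmd, Psme, Psmf or Psmg followed by a number, without Psmb8 and Psmb9 and without 4 pseudogenes. This gave 48 of the 55487 genes in the table, and all 48 passed the filter on low counts. They fell into the alpha ring (8 genes) and the beta ring (9) of the core particle, the ATPase ring of the cap (6), the other subunits of the base and the lid (11), activators with 1 inhibitor (6) and assembly chaperones (7). The remaining gene, Psmc3ip, carries a matching symbol but encodes a partner protein of meiotic recombination and no proteasome subunit.

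The proteasome is the large protease that degrades proteins marked with ubiquitin. Its core is a barrel of alpha and beta rings with the cutting sites inside the beta rings, and a cap of ATPases, scaffold and lid subunits binds, unfolds and deubiquitinates the substrate. Most subunit genes are transcribed in all cells. They are known to be raised together by the transcription factor NRF1 (Nfe2l1) when proteasome activity falls short. Photoreceptors, which renew membranous discs daily, are regarded as sensitive to proteasome load.

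Wild-type retinas (strain C57Bl/6J, postnatal day 28) were freed of sclera and pigment epithelium and cultured whole for 48 h in Neurobasal-A with B27, N2, antibiotics and 5 mM glucose, either without 2-DG (control, 5 libraries) or with 20 mM 2-DG (4 libraries), before 1 h in Krebs' Ringer medium. All 9 libraries carry the same batch label. The titles call them biological replicates, but the labels do not say whether each came from a separate animal, so p-values measure the spread between these libraries. Library totals ranged from 11318087 to 51802230 estimated counts, and the 48 genes took between 0.33% and 0.574% of the counts.

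Libraries stood apart in several respects that touch the results. The rod markers Nrl, Gnat1, Pde6b and Sag, which define the main cell type of the retina, were present in every library, with a sum of 15647 CPM (counts scaled to the effective library size) in control replicate 2 and 1617 to 6667 CPM in the others. Mitochondrial genes took 13.6% of counts in 2-DG replicate 4, 10.7% in control replicate 2, 9.97% in control replicate 5 and 3.4% to 6.68% in the other libraries. The bipolar cell markers Prkca, Grm6 and Trpm1 summed to 193 CPM in 2-DG replicate 4 and to 1142 to 2198 CPM in the other 2-DG libraries, and to 112 CPM in control replicate 5, 229.8 CPM in control replicate 2 and 699 to 1360 CPM in the other control libraries. Cone markers summed to 481 CPM in control replicate 2, 597 CPM in 2-DG replicate 3 and 29.4 to 72.9 CPM in the others. Retinal pigment epithelium markers summed to 81.4 CPM in 2-DG replicate 3 and to 1.36 to 19.5 CPM elsewhere. Müller glia markers (Rlbp1, Glul, Slc1a3, Sox9) had lower fitted values in 2-DG for 4 of 4 genes, 3 of them with an unadjusted p under 0.05 (edgeR) beside 7.25% of all genes tested, and 1 of them, Sox9, without 2-DG replicate 4, beside 12.9%. Their summed level was 1360 to 5865 CPM in control and 544 to 2311 CPM in 2-DG libraries. In whole tissue, fewer cells of a type and less RNA per cell cannot be told apart, and the part of these differences in the values below was not tested.

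Of the 48 proteasome genes, 0 passed an adjusted p-value of 0.05 with edgeR's quasi-likelihood test, beside 0% of all 21049 genes tested. At an unadjusted p under 0.05 there was 1 gene, the lid subunit gene Psmd13, beside 7.25% of all genes. With limma-voom and sample quality weights, 0 members passed the adjusted threshold beside 5.81% of all genes, and 4 had an unadjusted p under 0.05 beside 26% of all genes. With DESeq2 these were 0 members beside 1.35% and 1 member beside 10.3%. The fitted log2 fold change was above 0, meaning higher in 2-DG, in 43 of the 48 genes, beside 49.2% of all genes, and its median was 0.29 over the members and −0.01 over all genes. Without 2-DG replicate 4 these values were 23 of 48 genes, beside 46.5% of all genes, and a median of −0.005, beside −0.05 over all genes. The direction over the family rested on 1 library on this scale.

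The summed level of the 48 genes was 3692, 3496, 3497, 4066 and 4479 CPM in control replicates 1 to 5, and 4029, 4201, 3688 and 7005 CPM in 2-DG replicates 1 to 4. The first 3 2-DG libraries lay within the range of the control libraries, and the last lay above all others. The TMM scaling factor of 2-DG replicate 4 was 0.820, and that of the other libraries 0.945 to 1.09. Before that scaling the 48 genes took 0.574% of its counts and 0.33% to 0.443% of the counts elsewhere. 2-DG replicate 4 held the highest CPM of the 9 libraries for 39 of the 48 genes, beside 17.7% of all genes tested. It exceeded the next highest library at least 1.5-fold for 23 of the 48 genes, beside 3.99% of all genes tested, with the largest ratio, 2.13, for Psmb3. 2-DG replicates 1 to 3 were all above the control mean for 12 of the 48 genes, beside 24.4% of all genes tested.

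**Figure D1:**
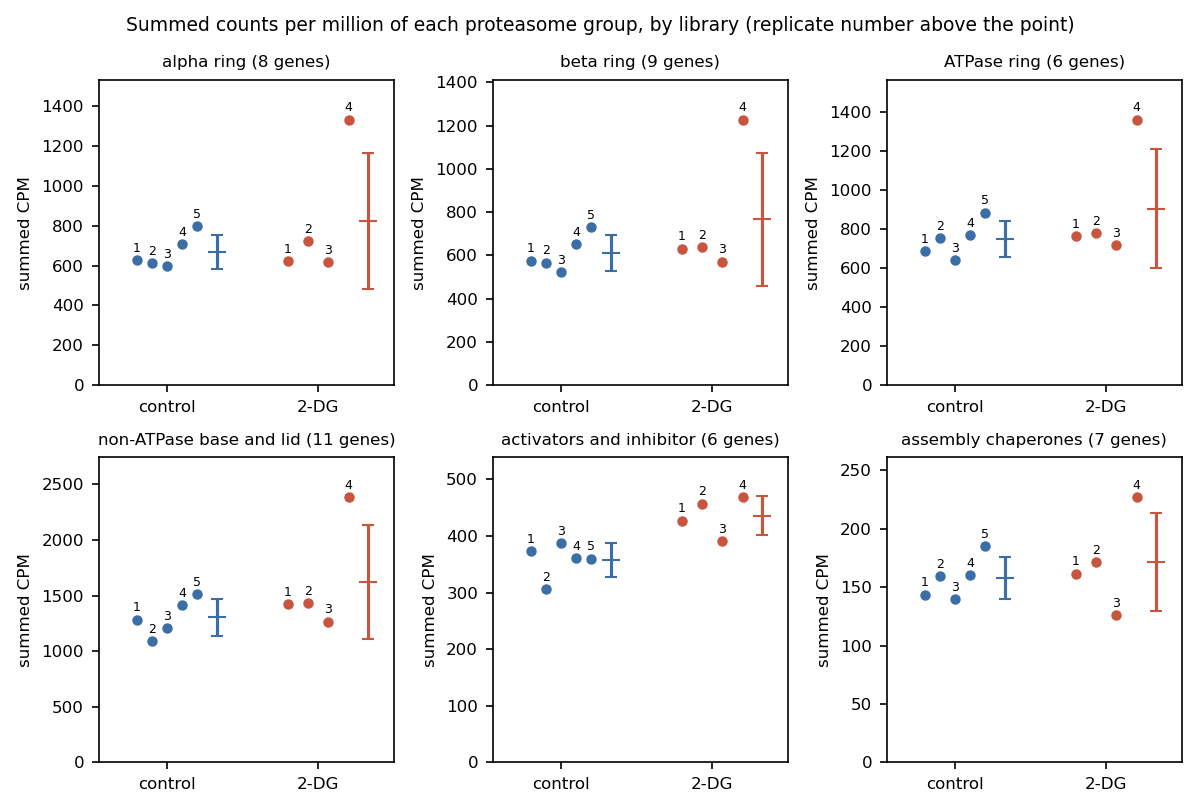
Summed CPM (vertical axis) of 6 groups of proteasome genes in each library, with control in blue and 2-DG in red; numbers above the points are replicate numbers, and bars give the mean and SD of the group. 2-DG replicate 4 is the highest point in every panel, at 1332 CPM for the alpha ring, and for activators and inhibitor it reaches 469 CPM against 391 to 457 CPM in the other 2-DG libraries.

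The alpha ring genes, which form the outer rings and the gate of the core, had fitted values above 0 in 8 of 8 genes with a median log2 fold change of 0.35, and in 4 of 8 genes with a median of −0.02 without 2-DG replicate 4. The smallest p-value belonged to Psma2, with 89.2, 75.7, 83.1, 91.6 and 98.4 CPM in control and 101.1, 101.1, 89.0 and 173.1 CPM in 2-DG libraries. Its groups overlapped through 2-DG replicate 3, and its log2 fold change of 0.41 (SE 0.23) had an adjusted p of 0.746 with edgeR. Without 2-DG replicate 4 the log2 fold change of Psma2 was 0.15. Psma3, the alpha ring gene with the highest CPM, was measured at 138.2 to 173.2 CPM in control and at 140.9, 197.4, 91.5 and 233.0 CPM in 2-DG libraries. It was lowest of all in 2-DG replicate 3 and highest in 2-DG replicate 4, and its log2 fold change was 0.06 (SE 0.27). That sign turned to −0.04 under upper-quartile scaling and to −0.03 with library size only. Psma8, the testis form that replaces Psma7 in germ cells, stayed between 0.6 and 2.9 CPM.

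The beta ring carries the 3 cutting activities, which belong to Psmb5 (chymotrypsin-like), Psmb6 (caspase-like) and Psmb7 (trypsin-like). Psmb5 had 48.3, 54.1, 31.5, 54.4 and 59.1 CPM in control and 52.8, 44.9, 48.6 and 96.5 CPM in 2-DG libraries. Psmb6 had 101.9, 105.0, 101.7, 121.8 and 133.7 CPM in control and 119.9, 118.8, 106.5 and 211.8 CPM in 2-DG libraries. Psmb7 had 104.5, 93.4, 97.6, 112.6 and 123.4 CPM in control and 99.6, 103.8, 95.6 and 203.7 CPM in 2-DG libraries. In each of the 3 genes, 2-DG replicates 1 to 3 fell inside the control range and 2-DG replicate 4 was far above it. The log2 fold changes were 0.29 (SE 0.28) for Psmb5, 0.30 (SE 0.24) for Psmb6 and 0.24 (SE 0.26) for Psmb7, with adjusted p-values of 0.834, 0.812 and 0.850 from edgeR. Without 2-DG replicate 4 they were −0.02, 0.03 and −0.09.

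All 9 beta ring genes had fitted values above 0 (median 0.29), and 5 of 9 did without 2-DG replicate 4 (median 0.03). Psmb3, a structural subunit, had the largest log2 fold change of the 48 genes at 0.58 (SE 0.30, adjusted p = 0.714 with edgeR). It was measured at 50.5, 57.0, 43.4, 59.3 and 69.1 CPM in control and at 62.6, 62.4, 62.4 and 147.0 CPM in 2-DG libraries, so that the first 3 2-DG libraries were almost equal and its log2 fold change without the last was 0.16. Psmb10, the interferon-induced subunit that takes the place of Psmb7 in the immunoproteasome, had 12.6 to 25.6 CPM in control and 14.7 to 28 CPM in 2-DG libraries. Its log2 fold change was 0.20 (SE 0.27), and 0.04 without 2-DG replicate 4. Psmb11, the form of the thymus, lay between 0.2 and 1.2 CPM in all libraries.

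The ATPase ring, which unfolds substrates and feeds them into the core, had fitted values above 0 in 6 of 6 genes (median 0.28) and in 3 of 6 without 2-DG replicate 4 (median 0.005). Psmc5 had the smallest p-value of the ring. Its values were 99.5, 126.3, 87.3, 108.3 and 121.2 CPM in control and 126.6, 131.8, 114.4 and 193.3 CPM in 2-DG libraries, and only 2-DG replicate 3 fell into the control range. The log2 fold change was 0.38 (SE 0.22, adjusted p = 0.747 with edgeR), and 0.20 without 2-DG replicate 4. Psmc1, the ATPase gene with the highest CPM of the ring in the fit, was at 117.6 to 145.3 CPM in control and at 155.4, 152.2, 130.8 and 234.9 CPM in 2-DG libraries. Its log2 fold change was 0.30 (SE 0.21), and 0.09 without 2-DG replicate 4.

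Among the other base and lid genes, 11 of 11 had fitted values above 0 (median 0.32), and 6 of 11 did without 2-DG replicate 4 (median 0.04). Psmd13, which encodes a scaffold subunit of the lid (ENSMUSG00000025487, chr7:140881968-140898643 on GRCm38, plus strand), was the only one of the 48 genes whose groups did not overlap in CPM, beside 1.52% of all genes tested that were higher in 2-DG without overlap. It had 83.9, 62.0, 77.0, 75.3 and 78.3 CPM in control (75.3 ± 8.12, SD, n = 5) and 101.3, 107.7, 92.8 and 111.5 CPM in 2-DG libraries (103.3 ± 8.17, SD, n = 4). 2-DG replicate 4 was here only 1.03 times the next library. The log2 fold change of 0.46 (SE 0.17) had an unadjusted p of 0.0222 and an adjusted p of 0.618 in the edgeR model. Without 2-DG replicate 4 the log2 fold change was 0.42 with an unadjusted p of 0.0433 and an adjusted p of 0.380 with edgeR, beside 12.9% of all genes at an unadjusted p under 0.05 in that fit. Over the alternatives the adjusted p of Psmd13 was lowest, at 0.051, in limma-voom with sample quality weights, and was at least 0.275 in the edgeR alternatives. Its unadjusted p was 0.0565 without 2-DG replicate 2 and 0.0639 with library size only (edgeR), with log2 fold changes of 0.44 and 0.39. It was highest, at 0.136, in the limma fit of log2 TPM, with a log2 fold change of 0.40. As TPM the groups of Psmd13 overlapped, at 83.7 to 159.3 TPM in control and 117.5 to 186.4 TPM in 2-DG libraries, with 2-DG replicate 4 inside the control range. On that scale 4 other members, Psma4, Psmb3, Psmc3 and Psmc5, were higher in 2-DG without overlap, beside 0.5% of all genes, and none of the 4 passed an adjusted p of 0.05 in the limma fit of log2 TPM.

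Reads of Psmd13 were divided over several transcripts in the deposited transcript table. The coding transcript Psmd13-201 held 31.0% ± 11.7 of its counts in control libraries and 27.8% ± 11.7 with 2-DG, and the transcript Psmd13-211, annotated as a target of nonsense-mediated decay, held 18.4% ± 7.80 and 22.3% ± 3.25 (SD over 5 control and 4 2-DG libraries). Both shares differed between the groups by less than the SD of the control libraries. Counted as TPM from coding transcripts alone, Psmd13 had 72.5, 64.8, 71.7, 64.2 and 62.1 TPM in control libraries. With 2-DG it had 93.0, 86.3, 62.5 and 69.0 TPM, so that the groups overlapped. Coding transcripts held 54.1% of its TPM in control libraries. Of 211 transcripts of the 48 genes tested, 0 passed an adjusted p of 0.05 with edgeR and 1 had an unadjusted p under 0.05, beside 3.45% of all 62900 transcripts tested. For 46 of the 48 genes the transcript with the largest share was a coding one. The exceptions were Psmc3ip and Psma3, for which the retained-intron transcript Psma3-203 held 42.5% ± 3.83 of counts in control libraries and 39.0% ± 2.27 with 2-DG.

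Psmd2, the scaffold of the base that receives ubiquitin-like domains, had the highest CPM of the base and lid genes, with 210.8 to 285.6 CPM in control and 285.9, 296.6, 271.1 and 414.0 CPM in 2-DG libraries. 2-DG replicate 3 was inside the control range and the other 3 were above it. The log2 fold change was 0.33 (SE 0.21, adjusted p = 0.775 with edgeR), and 0.17 without 2-DG replicate 4. At the other end, the lid gene Psmd6 had 46.1 to 63.2 CPM in control and 52.7 to 61.8 CPM in 2-DG libraries. It was the only gene of the base and lid that was not highest in 2-DG replicate 4, and its log2 fold change was 0.05 (SE 0.18).

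**Figure D2:**
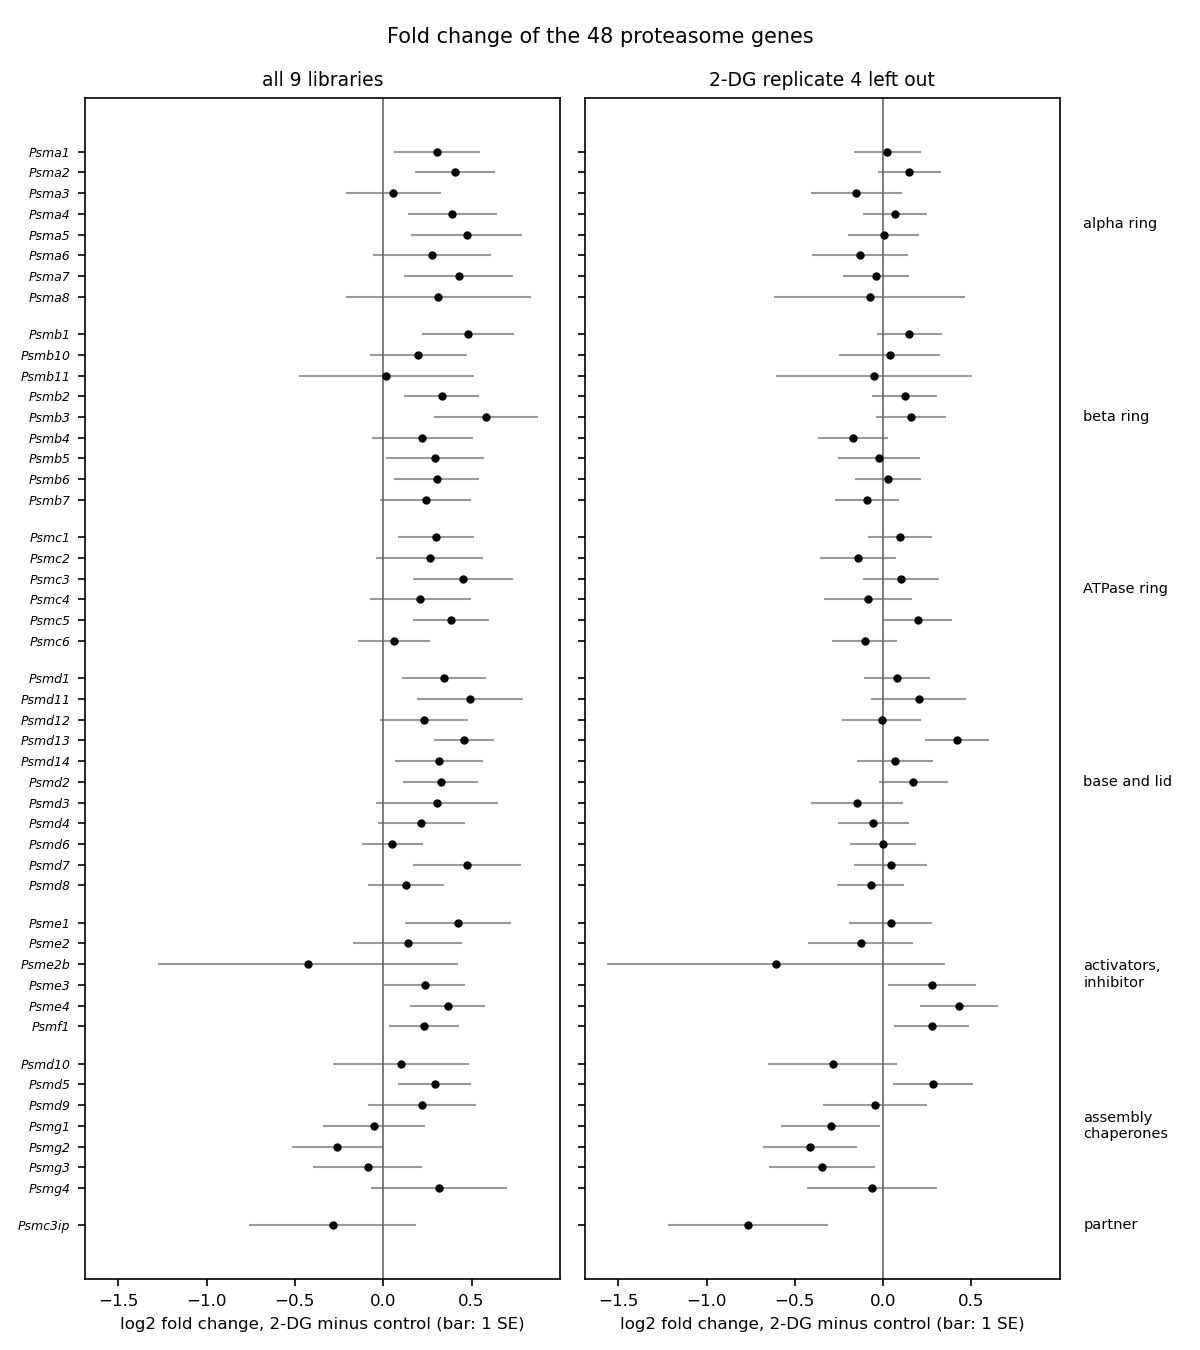
Log2 fold change (horizontal axis, 2-DG minus control, bars of 1 SE) of each of the 48 genes with all 9 libraries on the left and with 2-DG replicate 4 left out on the right. On the left 43 of the points lie above 0, on the right 23 do, and Psmd13 is at 0.46 and 0.42.

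Activators attach to the ends of the core in place of the cap, and Psmf1 encodes an inhibitor that binds the same ends. Their summed level was 373.4, 306.1, 387.2, 360.9 and 360.0 CPM in control and 426.8, 457.0, 390.9 and 468.7 CPM in 2-DG libraries, so that the sums did not overlap, by a small margin between control replicate 3 and 2-DG replicate 3. Without Psme4 the sums were 201.8 to 265.5 CPM in control and 256.2 to 341.2 CPM in 2-DG libraries, and as TPM (counts per transcript length) the sums of all 6 genes were 307.4 to 474.5 and 436.3 to 511 TPM, and in both cases the groups overlapped. The median log2 fold change was 0.23 with 5 of 6 genes above 0, and 0.16 with 4 of 6 genes above 0 without 2-DG replicate 4. Psme4, which encodes the activator PA200, had 109.2, 104.3, 158.0, 106.8 and 94.6 CPM in control and 156.7, 171.0, 134.6 and 127.5 CPM in 2-DG libraries. Control replicate 3 lay among the 2-DG libraries, and the other 4 control libraries lay below all of them. The log2 fold change was 0.36 (SE 0.21, unadjusted p = 0.111 and adjusted p = 0.751 with edgeR), and 0.43 without 2-DG replicate 4 (unadjusted p = 0.0820 and adjusted p = 0.439 with edgeR).

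Psme1 and Psme2 encode the alpha and beta subunits of the PA28 ring that interferon induces. Psme1 had 30.2 to 57.5 CPM in control and 45.7, 42.4, 42.3 and 95.9 CPM in 2-DG libraries, with a log2 fold change of 0.42 (SE 0.30), and 0.04 without 2-DG replicate 4. Psme2 had 32.7 to 75.4 CPM in control and 41.5, 49.9, 52.3 and 86.6 CPM in 2-DG libraries, with a log2 fold change of 0.14 (SE 0.31), and −0.13 without 2-DG replicate 4. Both had their highest value in 2-DG replicate 4 and otherwise stayed inside the control range. Psme3, the activator of the nucleus, had 61.6 to 129.7 CPM in control and 107.7 to 130.6 CPM in 2-DG libraries. Psmf1 had 40.3 to 57.4 and 45.3 to 63.6 CPM. The copy Psme2b, whose reads may be shared with Psme2, did not exceed 1.6 CPM in any library.

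The assembly chaperones help to build the core (Psmg1 to Psmg4) and the base (Psmd5, Psmd9, Psmd10) and leave the finished particle. They were the group with the lowest median among the 6, at 0.10 with 4 of 7 genes above 0, and at −0.29 with 1 of 7 genes above 0 without 2-DG replicate 4. Psmd5 had the smallest p-value and the highest CPM of this group, with 41.8 to 65.5 CPM in control and 64.8, 77.8, 48.5 and 65.5 CPM in 2-DG libraries. Its log2 fold change was 0.29 (SE 0.21, adjusted p = 0.790 with edgeR) and 0.28 without 2-DG replicate 4, the only value above 0 of the group in that fit. The core chaperone genes Psmg1, Psmg2 and Psmg3 had fitted log2 fold changes of −0.05, −0.26 and −0.09, and of −0.30, −0.41 and −0.35 without 2-DG replicate 4. None of the 3 had a p-value under 0.05 in either fit. Psmc3ip, the partner protein, had 3.0 to 9.2 CPM in control and 1.9 to 8.3 CPM in 2-DG libraries. Its log2 fold change was −0.29 (SE 0.47), and −0.77 without 2-DG replicate 4.

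**Figure D3:**
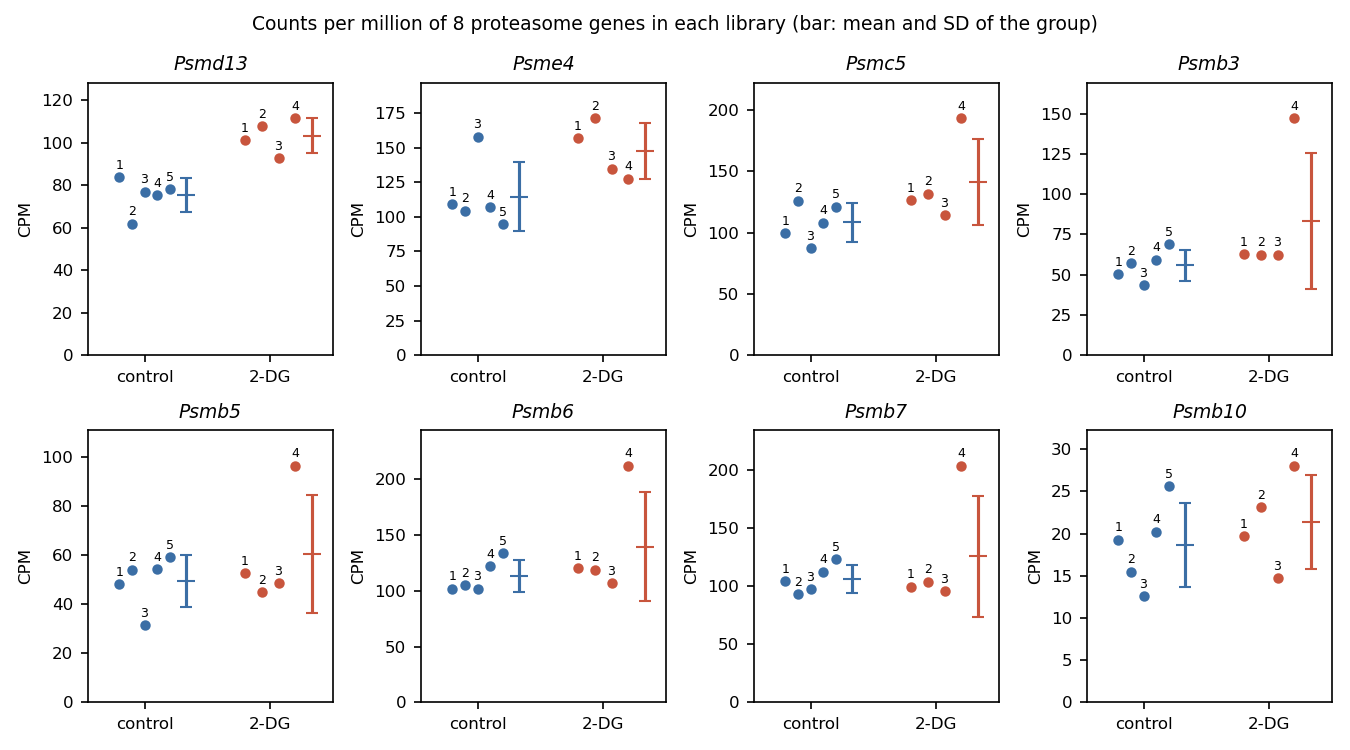
CPM (vertical axis) of 8 proteasome genes in each library, with control in blue, 2-DG in red, replicate numbers above the points and bars for the mean and SD of the group. The groups are apart for Psmd13 (62.0 to 83.9 CPM against 92.8 to 111.5 CPM), while for Psmb3, Psmb5, Psmb6 and Psmb7 a single 2-DG library lies above the rest.

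In control libraries the median spread was smaller for the proteasome genes than for all genes tested. The genes compared were not matched for level, and the part of level in this difference was not tested. The coefficient of variation of CPM in control libraries had a median of 19.7% over the 48 genes and of 41.7% over all genes tested, and ranged from 8.43% for Psmc1 to 92.2% for Psme2b. In the 2-DG libraries the medians were 35.9% and 38.0%, and without 2-DG replicate 4 they were 8.06% and 22.1%.

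Levels of different genes were compared as TPM, computed here from the transcript table as counts divided by the annotated transcript length and scaled to the same sum in each library. Levels from all transcripts were compared over the 31 constitutive subunits of the core and the cap. The highest was between 3.07 and 5.23 times the lowest within a library. With all transcripts of a gene counted, Psma3 was highest in control libraries at 312.1 ± 31.4 TPM, followed by Psmb6 at 293.2 ± 39.2 TPM and Psmb4 at 263.6 ± 44.4 TPM (SD, n = 5), and these neighbours did not differ beyond their spread. The lowest of the 31 was Psma2 at 83.6 ± 16.2 TPM. This order and the range between highest and lowest depended on the transcripts counted. With coding transcripts alone, a setting chosen after seeing the data, Psma3 was the lowest of the 31 at 37.2 ± 13.9 TPM, 11.9% of its level from all transcripts, and Psmb4 was at 127.2 ± 26.8 TPM. Psmb6 was then highest at 242.4 ± 37.1 TPM and Psma6 next at 205.6 ± 61.3 TPM (SD, n = 5). The range was wider, as in control replicate 3 with Psma3 at 23.2 TPM and Psmb6 at 249.6 TPM. Among the cutting subunits Psmb6 was above Psmb7 (188.5 ± 32.2 TPM), and Psmb7 was above Psmb5 (112.3 ± 17.5 TPM), each by more than the SD of either gene. The mean levels of the assembly chaperones in control libraries lay below that of every constitutive subunit, between 22.0 TPM for Psmd10 and 47.4 TPM for Psmg2. In control replicate 2 alone, Psmg2 at 57.2 TPM was above Psmd12 at 53.7 TPM. With coding transcripts alone, the mean of Psma3 lay below those of Psmd5 (41.3 TPM) and Psmg2 (41.0 TPM).

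Ratios between parts of the particle were similar in both groups. The mean level of the core subunits relative to the ATPases was 1.01 ± 0.0495 in the 5 control libraries and 1.02 ± 0.0688 in the 4 2-DG libraries (SD), and it was highest in 2-DG replicate 4 at 1.12 times. The TPM of Psmb10 divided by that of Psmb7 was 0.259 ± 0.0448 in control and 0.264 ± 0.061 with 2-DG (SD over the same libraries). Each of these differences was smaller than the SD within either group. For Psme1 divided by Psme2 the values were 0.572 ± 0.146 and 0.685 ± 0.077, a difference smaller than the SD of the control group. All transcripts are counted in these ratios, and coding ones held 30.6% of the TPM of Psmb10 in control libraries.

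**Figure D4:**
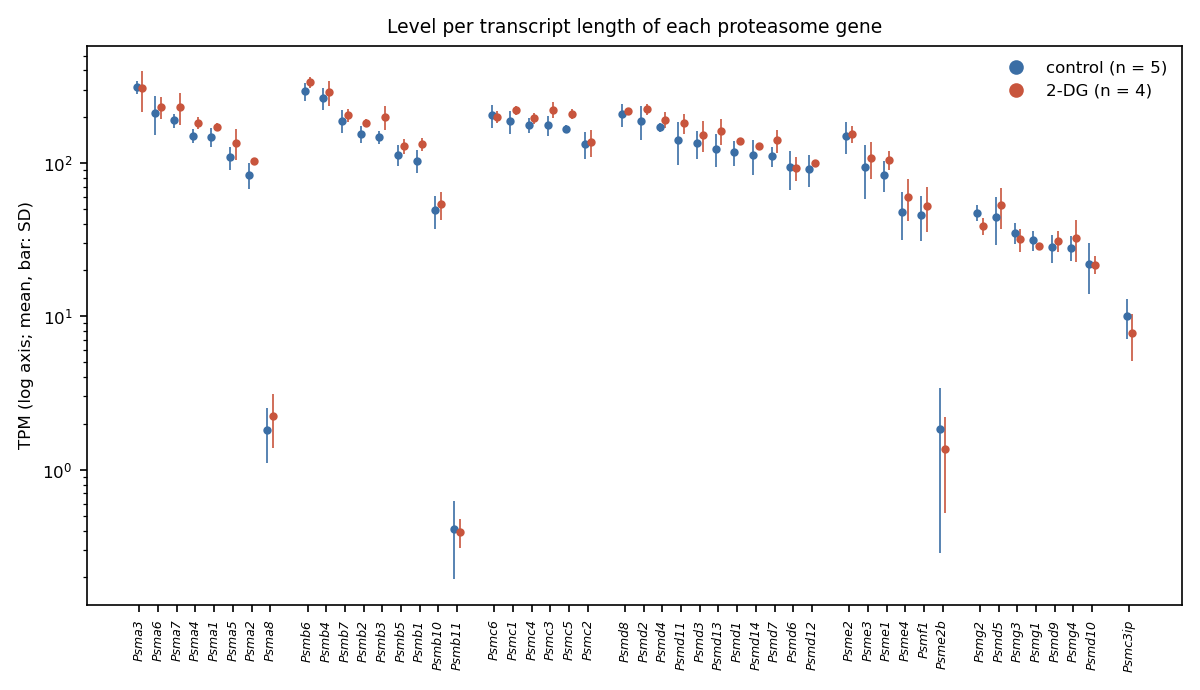
TPM (vertical log axis) of the 48 genes, grouped by their place in the particle, with the mean and SD of control (blue, n = 5) and 2-DG libraries (red, n = 4). The 31 constitutive core and cap subunits have control means of 83.6 to 312.1 TPM, the assembly chaperones and Psmb10 lie lower, and Psma8, Psmb11 and Psme2b are near or under 2 TPM.

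On the scale of TPM, 2-DG replicate 4 stood out less. The 48 genes summed to 6378, 4339, 6006, 5986 and 5847 TPM in control and to 6607, 6628, 5936 and 6898 TPM in 2-DG libraries. 2-DG replicate 4 was again highest, and control replicate 2 was lowest. With TPM computed over nuclear genes alone, the sums were 5543 to 7288 TPM in control and 7167, 7218, 6866 and 9196 TPM in 2-DG libraries. A limma fit of log2(TPM + 0.5), chosen after seeing the data, gave 41 of 48 genes above 0 with a median of 0.19, and 39 of 48 with a median of 0.16 without 2-DG replicate 4. The median over all genes was −0.03 and 0.12 in these fits, so relative to all genes the proteasome median was 0.22 higher with all libraries and 0.04 higher without 2-DG replicate 4. With CPM the same differences were 0.30 and 0.05.

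The length of transcripts moved with this library. The mean transcript length per count was 1625 bases in 2-DG replicate 4 and 1758 to 2273 bases in the others. Among all genes over 10 CPM, the median log2 difference of 2-DG replicate 4 from each gene's median library was 0.69 for transcripts under 1000 bases, 0.40 from 1000 to 1500 bases, 0.22 from 1500 to 2000 bases, 0.07 from 2000 to 3000 bases and −0.14 above that. For the proteasome genes it was 0.79, 0.86, 1.03, 0.82 and 0.24 in the same ranges, over 10, 16, 7, 7 and 3 genes. These values were larger than those of all genes in each range of length. Under 1000 bases, control replicate 5 had a median of 0.29 for all genes and of 0.29 for its 10 proteasome genes, control replicate 1 had −0.23 and −0.18, and control replicate 3 had −0.28 and −0.29. Control replicate 2 had 0.33 for all genes and −0.01 for the proteasome genes. From 1500 to 2000 bases, control replicates 1 to 5 had −0.04, 0.04, −0.04, 0 and 0.04 for all genes. For the 7 proteasome genes of that range they had −0.14, −0.24, −0.11, 0.10 and 0.24. Proteasome genes therefore also deviated from all genes of like length in control libraries.

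**Figure D5:**
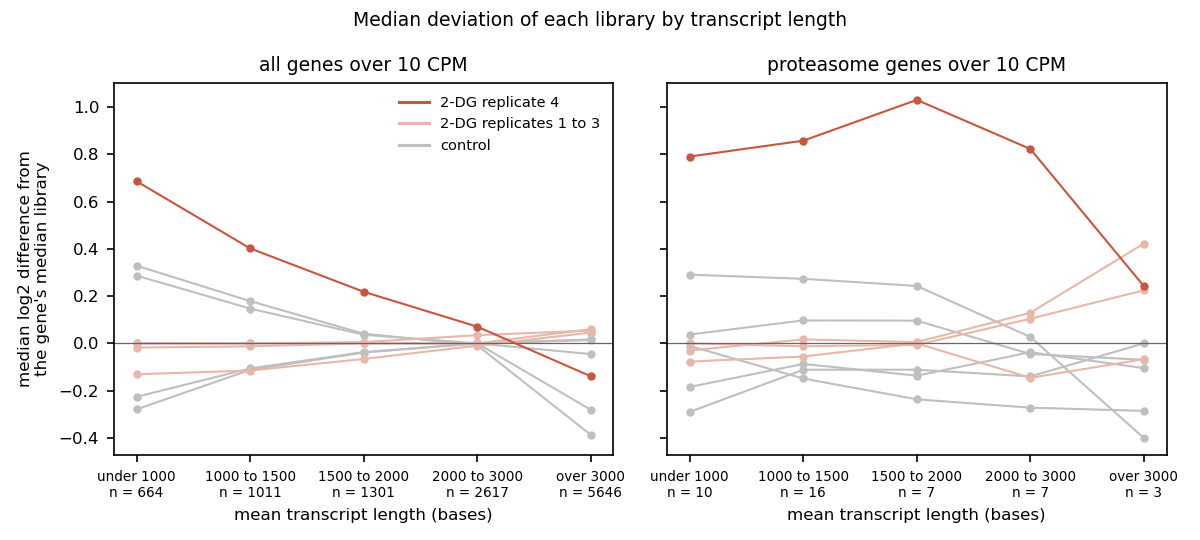
Median log2 difference of each library from the gene's median library (vertical axis) by transcript length (horizontal axis), for all genes over 10 CPM on the left and for the proteasome genes among them on the right. The line of 2-DG replicate 4 falls from 0.69 to −0.14 on the left and stays at 0.79 to 1.03 up to 3000 bases on the right.

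Other genes of the pathway were taken from a list of 27 genes, of which Paaf1 was not analysed here. Of the other 26, 0 had an unadjusted p under 0.05 (edgeR), beside 7.25% of all genes. Fitted values were above 0 in 20 of the 26 (median 0.23), beside 49.2% of all genes, and in 12 of the 26 without 2-DG replicate 4 (median −0.04), beside 46.5%. Among the proteasome-associated proteins, Usp14, a deubiquitinase of the cap, had a log2 fold change of 0.25 (SE 0.27). Zfand5, an activator of the 26S particle, had the lowest value of the list, −0.55 (SE 0.35). Pomp, the maturation factor of the core, was at 0.07 (SE 0.20), and at −0.09 without 2-DG replicate 4. The interferon-induced subunits left out of the family by the rule, Psmb8 and Psmb9, had log2 fold changes of 0.07 (SE 0.55) and −0.15 (SE 0.51). Without 2-DG replicate 4 these were −0.38 and −0.01. Of 8 interferon response genes 7 had fitted values under 0, and 1 of the 8, Ifit3, had an unadjusted p under 0.05, beside the 7.25% of all genes. Without 2-DG replicate 4 it was 4 of the 8 (Irf1, Isg15, Ifit1 and Ifit3, named after their values were seen), beside 12.9% of all genes.

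Of the factors around NRF1, Nfe2l1 itself had a log2 fold change of 0.39 (SE 0.37). Ddi2, the protease that releases NRF1, was at 0.42 (SE 0.25) with all libraries and at 0.43 without 2-DG replicate 4. Vcp, the ATPase that extracts NRF1 from the endoplasmic reticulum, was at 0.47 (SE 0.28) and at 0.22 without that library. Ngly1, the glycanase that also processes NRF1, was at −0.04 (SE 0.19) and −0.07, and Nfe2l2, which encodes the related factor NRF2, was at 0.17 (SE 0.46) and −0.43. The shuttles Rad23b, Ubqln1, Ubqln2 and Ubqln4, which carry ubiquitinated proteins to the cap, had fitted values above 0 in 4 of 4 genes with and without 2-DG replicate 4, with medians of 0.23 and 0.22. Uba1, the enzyme that starts ubiquitin transfer, was at 0.30 (SE 0.19). Ddi2 and Uba1 were 2 of the 26 pathway genes that were higher in 2-DG without overlap of the groups, beside 1.52% of all genes tested. All of these were above an unadjusted p of 0.05 in both fits.

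Promoter sequences of GRCm38.p6 from RefSeq, from 250 bases before to 50 bases after the start, were at hand for 40 of the 48 genes. The letters TGACNNNGC, the core of the element bound by NRF1 and related factors, were found on either strand in 6 of these 40 promoters (15%), and in 14.0% of all genes with a promoter in the table. The 6 genes were Psmb5, Psmb6, Psmc6, Psmd9, Psmd12 and Psme4, and the promoter of Psmd13 held no match. A match is a run of letters and shows no binding. The 100 bases before the start are shown for the 3 genes in which the match lies within them on the strand of the gene, among them the cutting subunits Psmb5 and Psmb6, with the match in capitals, for Psmb5 at chr14:54617996-54618095 on the minus strand, for Psmb6 at chr11:70525257-70525356 on the plus strand and for Psmd9 at chr5:123228090-123228189 on the plus strand.
Psmb5: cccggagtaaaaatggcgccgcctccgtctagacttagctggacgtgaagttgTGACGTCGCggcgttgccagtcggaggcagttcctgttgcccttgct
Psmb6: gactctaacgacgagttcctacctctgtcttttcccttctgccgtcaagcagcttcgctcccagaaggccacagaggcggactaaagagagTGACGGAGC
Psmd9: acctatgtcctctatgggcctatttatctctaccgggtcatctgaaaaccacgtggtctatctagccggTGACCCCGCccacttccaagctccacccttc
The log2 fold changes of the 6 genes with a match ranged from 0.06 for Psmc6 to 0.36 for Psme4, and without 2-DG replicate 4 from −0.10 for Psmc6 to 0.43 for Psme4, with 4 of the 6 below 0.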

How the data were processed

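The authors deposited estimated counts per gene and per transcript from kallisto on GRCm38 (per the submitters' processing notes; the version is not given in the sources used here), with replicates kept apart. The library kit was stranded, for total RNA, with 4 ng of input and 13 PCR cycles. The authors' CPM table and their table of fold changes and p-values were not used. Estimated counts were rounded, filtered with filterByExpr, scaled with TMM and tested in edgeR 4.0.16 (R 4.3.3; glmQLFit with legacy=TRUE, then glmQLFTest) on all 9 libraries with a single term for the group, and the Benjamini-Hochberg adjustment ran over 21049 genes. The standard error was the absolute log2 fold change over the square root of F. CPM used the TMM-scaled library size. A floor of 3 counts lay between 0.0556 and 0.255 CPM. Alternatives used DESeq2 1.42.0 and limma 3.58.1, and the scripts were tested on simulated data. TPM used the annotated lengths of GENCODE M21, which held 99.1% of the transcripts, and not effective lengths.

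The members and lists were chosen with earlier results of these data known, and some genes of the marker and pathway lists are not reported here. Genes named with full values were Psmb5, Psmb6, Psmb7, Psmb10, Psme1 and Psme2, every member with an unadjusted p under 0.05 or without overlap of the groups, and in each group the member with the smallest p and the one with the highest log2 CPM; other members named were chosen after their values were seen. No pair of libraries in a group agreed within sampling noise (chi-square per degree of freedom at least 21.2).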

Additional observations from a re-analysis of the deposited data

Results flagged for a closer look

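Of 46 groups of libraries examined for a single library far from the rest (the named genes and the summed groups, in control and in 2-DG), 12 held one. Chance gives about 1 in 20 for independent groups. The 46 groups share libraries and genes, so their count cannot be set against that rate. In 11 of the 12 it was 2-DG replicate 4, which ties them to 1 library, and the cause was not tested. The summed level of the 48 genes was 7005 CPM in that library against 3688 to 4201 CPM in the other 2-DG libraries. The summed alpha ring was 1332 CPM, the beta ring 1227 CPM, the ATPase ring 1358 CPM and the base and lid 2385 CPM there. Single genes of the same kind were Psma2 at 173.1 CPM, Psmb3 at 147.0 CPM, Psmb5 at 96.5 CPM, Psmb6 at 211.8 CPM, Psmb7 at 203.7 CPM and Psme1 at 95.9 CPM. The other flag was control replicate 3 for Psme4, at 158.0 CPM against 94.6 to 109.2 CPM in the other control libraries.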

How the results depend on the processing

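No member passed an adjusted p of 0.05 under any of the 24 alternatives, of which limma-voom called 1222 of all genes and DESeq2 284, and the smallest adjusted p of a member was 0.051, for Psmd13. Leaving out each library in turn gave 23 to 44 members above 0 and a median log2 fold change of −0.0050 to 0.38, with the low ends without 2-DG replicate 4. The median was 0.0765 with limma-voom and sample quality weights. Without both control replicate 2 and 2-DG replicate 4, a setting chosen after seeing the data, 20 members were above 0 with a median of −0.030, and on TPM of nuclear genes without 2-DG replicate 4, also added then, the median was 0.090. Upper-quartile scaling moved the median of all genes to −0.09 and the TPM fit without 2-DG replicate 4 to 0.12. The replicate block over numbers 1 to 4 gave 45 members above 0 (median 0.32) and a log2 fold change of −0.016 for Psma3; deviations of same-numbered libraries correlated at 0.45, −0.15, 0.10 and 0.21, so the numbers were not taken as pairs. Of 384 values of the 16 named members under these alternatives, 361 kept their direction and 23 turned. Psma3 turned to −0.037 with upper-quartile scaling, −0.028 with library size only, −0.013 with limma-voom, −0.13 without both libraries, and on TPM to −0.073 and, without 2-DG replicate 4, −0.071 (nuclear genes −0.089 and −0.15). Psme2 turned to −0.033 with limma-voom, −0.079 without both libraries, and −0.011 and −0.092 on the TPM scales without 2-DG replicate 4. Psmb7 turned to −0.051, −0.14 and, on nuclear TPM without 2-DG replicate 4, −0.012. Psme1 and Psmb10 turned to −0.012 and −0.028 without both libraries. Leaving out single libraries moved Psma3 between −0.15 and 0.26, Psme2 between −0.13 and 0.30, Psmb5 between −0.023 and 0.42 and Psmb7 between −0.093 and 0.35. The cause was not tested. Psma8, Psmb11 and Psme2b stayed under 3 CPM, and low expression and depth were not separated for them.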
